A study of Mus musculus with 2 samples.

Results

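Dividing intermediate progenitors are Eomes-positive cells of the developing cortex that carry transcripts of the cell-cycle genes Mki67 and Top2a. They were chosen here by their UMI counts, a UMI being a molecular tag that marks 1 captured transcript. A member had at least 1000 detected genes, at most 10% mitochondrial UMIs, at least 3 Eomes UMIs, at least 3 UMIs of Mki67 and Top2a together, at most 2 UMIs of Dlx1 and Dlx2 together and no Trp73 UMI. This gave 107 cells of 3182 kept cells and 4301 barcodes, 45 in replicate 2 and 62 in replicate 4. The tissue was E14.5 mouse dorsal telencephalon (embryonic day 14.5) from wild-type animals, in 2 droplet libraries of a single group, WT. The labels describe the samples with the word EomesDot, and the study's methods describe the embryos as C57BL/6J. How EomesDot relates to C57BL/6J is not stated. No group of animals could be compared with another, and every comparison below is between kinds of cells within the same pair of libraries. Where values of a pair of libraries are given, replicate 2 comes first. Members of replicate 2 had no Xist and 64 Ddx3y UMIs and those of replicate 4 had 2280 Xist and no Ddx3y UMIs, so library and embryo sex cannot be told apart, and p-values measure only the spread between these libraries.

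In the embryonic cortex, radial glia line the ventricle, divide there and give rise to neurons directly or through intermediate progenitor cells (IPCs). IPCs leave the apical surface, switch on the T-box factor Eomes (Tbr2), divide in the subventricular zone and produce glutamatergic neurons. Proneural factors such as Neurog2 start this step and raise Notch ligands, while Notch receptors and Hes effectors keep neighbouring radial glia as progenitors. A cell in S phase copies its DNA and a cell in G2 or M phase prepares and carries out mitosis, so transcripts of these phases show where in a cycle a cell stands.

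Replicate 2 held 1712 barcodes with 40267872 UMIs and replicate 4 held 2589 barcodes with 49422007 UMIs. Members were deeply sampled, with medians of 29238 and 32973 UMIs and of 6105 and 6278 genes per cell. Their summed UMIs were 1520518 and 2098076, and 1 UMI in a sum is worth under 1 CPM, the unit used below for the UMIs of a gene scaled to a fixed total per sum. The libraries shared 3 barcodes, none of them a member. Scrublet called 0 and 4 members doublets. They were kept here, and results without them are among the alternatives.

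The promoters of 4 mitotic and 2 S phase genes are shown first, since transcripts of this kind set members apart from other Eomes-positive cells. Each window runs from 100 bases before to 50 bases after the transcript start given by RefSeq on GRCm38.p6 (mm10, the build in the labels), printed 5′ to 3′ on the strand of the gene. Capitals mark the letters TTTGAA, the core of the cell-cycle homology region (CHR), and CCAAT, the CCAAT box, on either strand. In Pcna the marked letters are the reverse complement of CCAAT, a box on the opposite strand.
Ccnb1: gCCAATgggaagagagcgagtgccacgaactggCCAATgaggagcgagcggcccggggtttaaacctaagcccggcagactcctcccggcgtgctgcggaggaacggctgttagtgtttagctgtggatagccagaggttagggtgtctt
Ccnb2: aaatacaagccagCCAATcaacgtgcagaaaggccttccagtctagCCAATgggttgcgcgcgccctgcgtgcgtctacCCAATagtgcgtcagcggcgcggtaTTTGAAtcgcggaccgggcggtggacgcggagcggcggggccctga
Cdc20: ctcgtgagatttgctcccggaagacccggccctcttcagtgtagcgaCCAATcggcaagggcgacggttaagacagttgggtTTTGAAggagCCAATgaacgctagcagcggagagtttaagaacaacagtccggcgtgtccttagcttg
Plk1: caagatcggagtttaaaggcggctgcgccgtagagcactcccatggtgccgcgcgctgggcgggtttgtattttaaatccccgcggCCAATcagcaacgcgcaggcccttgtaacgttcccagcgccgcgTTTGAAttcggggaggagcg
Mcm5: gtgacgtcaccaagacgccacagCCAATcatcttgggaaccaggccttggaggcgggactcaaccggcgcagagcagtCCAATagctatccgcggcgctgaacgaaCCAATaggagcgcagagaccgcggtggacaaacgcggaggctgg
Pcna: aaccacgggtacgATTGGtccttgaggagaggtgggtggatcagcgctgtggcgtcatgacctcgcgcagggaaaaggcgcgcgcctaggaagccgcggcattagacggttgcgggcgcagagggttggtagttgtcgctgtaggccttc
Ccnb1 (chr13:100786437-100786586, minus strand) and Ccnb2 (chr9:70421505-70421654, minus strand) encode mitotic cyclins, Cdc20 (chr4:118437294-118437443, minus strand) an activator of the anaphase-promoting complex and Plk1 (chr7:122159335-122159484, plus strand) a mitotic kinase. Mcm5 (chr8:75109409-75109558, plus strand) encodes a subunit of the replicative helicase and Pcna (chr2:132253131-132253280, minus strand) the replication clamp. Of the 4 mitotic genes, Ccnb2, Cdc20 and Plk1 had a CHR in the printed window and Ccnb1 had none, and neither S phase gene had one. In windows of 300 bases, searched on both strands, 31 of the 47 matched G2/M genes (66.0%; the list has 54) held TTTGAA, against 18.1% of 27025 genes. CCAAT was in 76.6% of these G2/M windows and in 37.9% of all, CAGATG (an E-box) in 8.51% and 17.2%, and GGCGGGAA (an E2F-like motif) in 0% and 2.24%. For the S phase and IPC lists fewer genes were matched, 33 of 45 and 11 of 14, and shares over these lists are void. The G2/M shares are thus set beside all genes only and are not shown to be particular to that list. A match is a description of letters and not of binding.

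Eomes and the cycle genes of the members are the values that chose them and are given as a description. Members had a median of 10 and 15 Eomes UMIs, from 3 to 37 in replicate 2 and from 3 to 67 in replicate 4. Mki67, a marker of cycling nuclei, and Top2a, which untangles DNA, gave together a median of 11 and 36 UMIs and at most 219 and 176. Both genes were present in 39 of 45 and 58 of 62 members. At the lower edge, 4 and 11 members had exactly 3 Eomes UMIs and 2 and 2 had exactly 3 cycle UMIs. Just outside, 2 and 11 cells failed with 2 Eomes UMIs and 5 and 14 failed with 2 cycle UMIs. Dlx1 and Dlx2 were at 0 in every member, and 2 and 3 cells that passed the Eomes and cycle limits were left out by the limits on Dlx1, Dlx2 and Trp73.

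Neurog2, the proneural factor named as a marker beside Eomes, Mki67 and Top2a, was not used by the rule. It was present in 43 of 45 and 58 of 62 members, with medians of 8 and 5.5 UMIs. A Neurog2 UMI was also found in 42.0% and 39.0% of dividing radial glia, and Neurog2 is a gene that accompanies Eomes, so it is no independent check of the label. Transcripts of the lineage before and after the members were present in them. The radial glia list summed to 2587 and 2216 CPM and the excitatory neuron list to 6727 and 9110 CPM, beside 1880 and 1841 CPM of the IPC list. Markers of lineages outside this sequence were low. The limits on Dlx1, Dlx2 and Trp73 leave out GABAergic and Cajal-Retzius cells, so low values of those lists follow from the rule. Of 8 GABAergic genes, 7 and 6 were at 0. The Cajal-Retzius list summed to 69.7 and 35.7 CPM and the cortical hem or choroid plexus list to 16.4 and 24.8 CPM. The vascular list stood at 4.6 and 15.3 CPM, the microglia list at 7.23 and 5.24 CPM and the hemoglobin-led erythroid list at 72.3 and 184 CPM. Genes at 0 in the members of both libraries, picked for that value, included Lhx1, Lhx5 and Calb2 (Cajal-Retzius), Folr1 and Wnt3a (hem and choroid plexus), Cldn5, Kdr and Col1a1 (vascular and meningeal) and Aif1 (microglia). Other genes of these lists were present. At 0 were 3 and 3 of 7 Cajal-Retzius, 5 and 4 of 8 hem or choroid plexus, 4 and 4 of 8 vascular and 5 and 3 of 7 microglia genes. At least 3 UMIs of Reln, a Cajal-Retzius gene, were found in 3 and 4 members.

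Members were a minority of the Eomes-positive cells. Of 243 cells with at least 3 Eomes UMIs that passed the limits on Dlx1, Dlx2 and Trp73 in replicate 2, 45 were dividing, which is 18.5% with an exact (Clopper-Pearson) 95% range of 13.8% to 24.0%. In replicate 4 the share was 15.6% (62 of 397 cells, 12.2% to 19.6%). The mean was 17.1% ± 2.05 (SD, n = 2), and the intervals, which cover counting error only, overlapped. The remainder split into 30 and 63 cells with 1 or 2 cycle UMIs and 168 and 272 cells with none. Of those with none, 145 and 233 held more than 2 UMIs of the neuronal genes Neurod2 and Neurod6 together. The share is thus one of Eomes-positive cells and not of IPCs alone.

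Single members spanned a wide range between glial and neuronal transcripts. A list of 20 radial glia genes took a median of 0.111% and 0.130% of a member's UMIs, from 0.0481% to 1.25% and from 0.00914% to 0.834%. A list of 15 genes of excitatory neurons took 0.606% and 0.770%, from 0.0946% to 1.53% and from 0.159% to 2.82%. Cells rich in radial glia transcripts were poor in neuronal transcripts, with a Spearman correlation over cells of -0.78 in replicate 2 (45 cells) and -0.72 in replicate 4 (62 cells). This is a description, since the points share a library and both quantities are shares of the same total.

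Pax6, the homeodomain factor of radial glia, and Neurod1, a bHLH factor of the next step, also divided the members. At least 3 Pax6 UMIs were found in 28 of 45 and 28 of 62 members, and at least 3 Neurod1 UMIs in 17 and 27. Both thresholds were met by 11 and 10 cells and neither by 11 and 17. Sox2, a stem-cell factor, was detected in 29 and 41 members, 28 and 40 of which also had Neurog2. Hes5, a Notch effector, was detected in only 11 and 9. Genes that varied most like Eomes over the members had weak correlations. The actin-binding Coro1c led with Spearman values of 0.50 and 0.35, and the reelin receptor gene Lrp8 had 0.33 and 0.35, among genes with a UMI in at least 20% of members. They top a ranking of 8743 genes, of which 1553 were positive in both libraries, and no chance level was computed. The other genes of that ranking were Eny2, Kif26b, Med28, Sem1, Srsf1 and Srsf11.

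**Figure D1:**
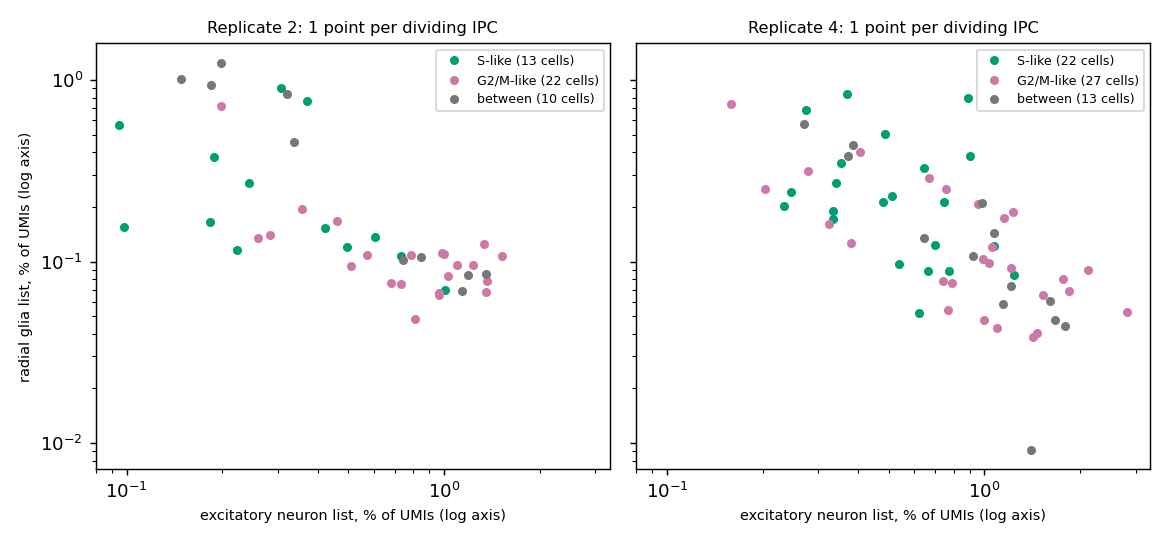
Each point is a member, placed by the percent of its UMIs in the excitatory neuron list (x, log axis) and the radial glia list (y, log axis), in replicate 2 (left, 45 cells) and replicate 4 (right, 62 cells), coloured by phase group. Points run from upper left to lower right, with medians of 0.606% and 0.770% on x and 0.111% and 0.130% on y.

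Transcripts of Neurod2 and Neurod6, bHLH genes of postmitotic excitatory neurons, were common in these dividing cells. More than 2 UMIs of both genes together were found in 33 of 45 members (73.3%, 95% Clopper-Pearson interval 58.1% to 85.4%) and 52 of 62 (83.9%, 72.3% to 92.0%). In dividing radial glia (RG), defined by no Eomes UMI, at least 3 Mki67 and Top2a UMIs and at least 3 UMIs of Fabp7 and Slc1a3, the shares were 4.02% (7 of 174; 1.63% to 8.11%) and 4.87% (13 of 267; 2.62% to 8.18%). The intervals of the cell groups did not overlap in either library. They take cells as independent draws and cover counting error only, so this is a description and no test between the groups. Median UMIs of both genes were 22 and 14 per member and 0 and 0 per dividing RG cell, at median depths of 29238 and 32973 against 36001 and 29043 UMIs. Thinned to 10000 UMIs, 17 of 19 and 32 of 38 members retained a Neurod2 or Neurod6 UMI (89.5% and 84.2%) against 7.63% and 10.9% of dividing RG, and unthinned the shares were 82.2% and 88.7% against 11.5% and 16.9%. Thinning left out 1 and 4 members that were shallower, and only cells that still passed the limits were counted. The 4 members called doublets, all in replicate 4, were among the cells over the limit, and the share of doublets that were not called was not tested.

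Members were next compared with the 174 and 267 dividing RG, which met the same limit on Mki67 and Top2a, to ask how a dividing cell of the Eomes lineage differs from a dividing glial progenitor. UMIs were summed per library and cell group and tested with edgeR over 11304 genes. At an adjusted p under 0.05, 1756 (15.5%) passed and are named called below. A gene that was not called is not thereby shown to be equal. Members were the higher side for 826 (7.31%) and the lower side for 930 (8.23%). The median gene was at a log2 fold change of -0.02. Genes used by any limit were left out of the tests, but genes that accompany Eomes, Fabp7 or Slc1a3 were chosen with them, so the direction of the IPC and radial glia lists is not independent of the rule.

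All 14 genes of the IPC list were higher in members, with a median log2 fold change of 4.46. Neurog2 (ENSMUSG00000027967) was at 415 and 327 CPM in members and 48.3 and 42.6 CPM in dividing RG (edgeR log2 fold change 3.09 with SE 0.20, adjusted p = 0.000358). The zinc-finger factor Insm1, which promotes the formation of basal progenitors, was at 347 and 209 against 17.6 and 18.2 CPM (4.01, SE 0.26, adjusted p = 0.000368). Both libraries placed members far above dividing RG for both genes. Gadd45g, a stress and growth-arrest gene of newly committed cells, stood at 268 and 336 against 19.5 and 12.9 CPM (4.29, SE 0.24), and the antiproliferative Btg2 at 120 and 141 against 29.2 and 29.3 CPM (2.22, SE 0.15). Somatostatin receptor gene Sstr2 was at 98.0 and 104 against 3.04 and 2.63 CPM (5.21, SE 0.19, adjusted p = 0.000109). Hes6, an inhibitor of Hes1, had a log2 fold change of 2.96, and the matrix gene Mfap4 one of 2.79.

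Several proneural genes were at or near 0 in dividing RG. Neurog1 gave 96 UMIs in members and none in dividing RG, at least 129-fold higher against a floor of 3 counts over the group. Neurod4 gave 57 UMIs against 1 (ratio of CPM 229, counting interval 39.5 to 9212) and Nhlh1 64 against 2 (129, 34.2 to 1086). Neurod1 was at 75.6 and 122 against 3.50 and 2.51 CPM, a log2 fold change of 5.11 (SE 0.31). These counts were spread over cells: Nhlh1 was detected in 42.2% and 37.1% of members and Neurog1 in 31.1% and 30.6%.

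**Figure D2:**
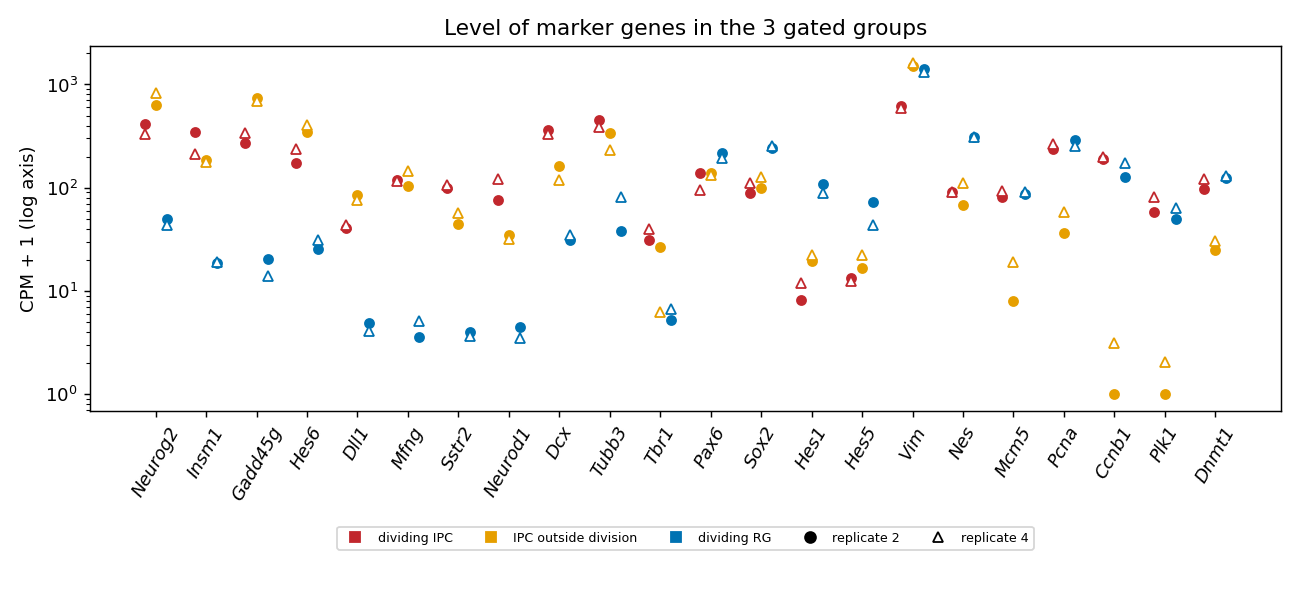
CPM + 1 (log axis) of 22 marker genes in dividing IPC (red), IPC outside division (orange) and dividing RG (blue), with replicate 2 as filled circles and replicate 4 as open triangles. Neurog2 in members, at 415 and 327 CPM, sits above dividing RG at 48.3 and 42.6 CPM, and Hes1 at 7.23 and 11.0 CPM sits below 108 and 87.9 CPM.

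Notch pathway genes moved both ways. Of 18 tested, 5 were higher and 9 lower in members, with a median log2 fold change of -0.81. The ligand genes Dll1 and Dll3 rose, and Jag1 was not called (-0.67, edgeR adjusted p = 0.621). Dll1 was at 39.5 and 42.4 against 3.95 and 3.13 CPM (edgeR log2 fold change 3.59 with SE 0.20, adjusted p = 0.000292), and Dll3 at 13.2 and 20.5 against 0.608 and 0.752 CPM (4.63, SE 0.70). Mfng, a glycosyltransferase that modifies Notch receptors, was at 118 and 114 against 2.58 and 4.14 CPM (5.14, SE 0.27), whereas its relative Lfng was lower, with a log2 fold change of -3.22 (SE 0.54). The receptors Notch1, Notch2 and Notch3 fell. Notch1 was at 81.6 and 74.4 against 159 and 156 CPM (-0.95, SE 0.14, adjusted p = 0.00637), and Notch2 and Notch3 had log2 fold changes of -1.81 and -1.92. Of the effectors, Hes1 (ENSMUSG00000022528) was at 7.23 and 11.0 against 108 and 87.9 CPM (-3.33, SE 0.23) and Hes5 at 12.5 and 11.4 against 71.9 and 43.0 CPM (-2.20, SE 0.32), and Hey1 was also lower (-1.33). Numbl, an inhibitor of Notch, and Rbpj, its DNA-binding partner, were higher (1.89 and 0.78). In cells thinned to 10000 UMIs Rbpj was at 0.31 and not called (adjusted p = 0.307).

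Of 20 radial glia genes, 18 were lower and none higher, with a median of -1.75. The stem-cell factors Sox2 (88.8 and 111 against 244 and 251 CPM) and Sox9 had log2 fold changes of -1.24 and -1.88. Nestin (Nes), an intermediate filament of progenitors, was at 89.4 and 89.1 against 312 and 311 CPM (-1.74, SE 0.21). Vimentin (Vim), another filament gene, was at 619 and 597 against 1417 and 1325 CPM (-1.11, SE 0.11). Pax6 differed least among the called genes named here, at 137 and 93.9 against 216 and 195 CPM (-0.77, SE 0.19, adjusted p = 0.0377). The call for Hopx (-1.66) was lost when at least 6 cycle UMIs were required (edgeR adjusted p = 0.0690). Prom1, of apical membrane protrusions, was not called, at 94.0 and 96.3 against 91.2 and 90.2 CPM. Values of further list genes, here and below, were chosen after they had been seen: Ttyh1 -2.79, Ptprz1 -2.51, Aldoc -2.35 and Id4 -1.94.

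Neuronal transcripts were higher in the dividing members as well. Of 15 excitatory neuron genes, 9 were higher and none lower, with a median of 1.41. The microtubule genes Dcx, at 358 and 333 against 30.1 and 33.9 CPM (edgeR log2 fold change 3.49 with SE 0.19, adjusted p = 0.000269), and Tubb3, at 451 and 386 against 37.1 and 79.6 CPM (2.90, SE 0.37), mark neurons in migration. Unc5d, a netrin receptor of multipolar cells, was at 886 and 1662 against 83.7 and 94.8 CPM (3.90, SE 0.36). Tbr1, the deep-layer factor that follows Eomes, was at 30.3 and 39.1 against 4.26 and 5.77 CPM (2.85, SE 0.49). Slc17a6, the vesicular glutamate transporter VGLUT2, was among the genes with the largest difference, at 191 and 228 against 1.98 and 2.38 CPM (6.62, SE 0.21). Clvs1 (5.75), St18 (5.42) and Myt1 (5.26), the latter pair zinc-finger factors of neuronal differentiation, followed among the genes named by the rule.

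**Figure D3:**
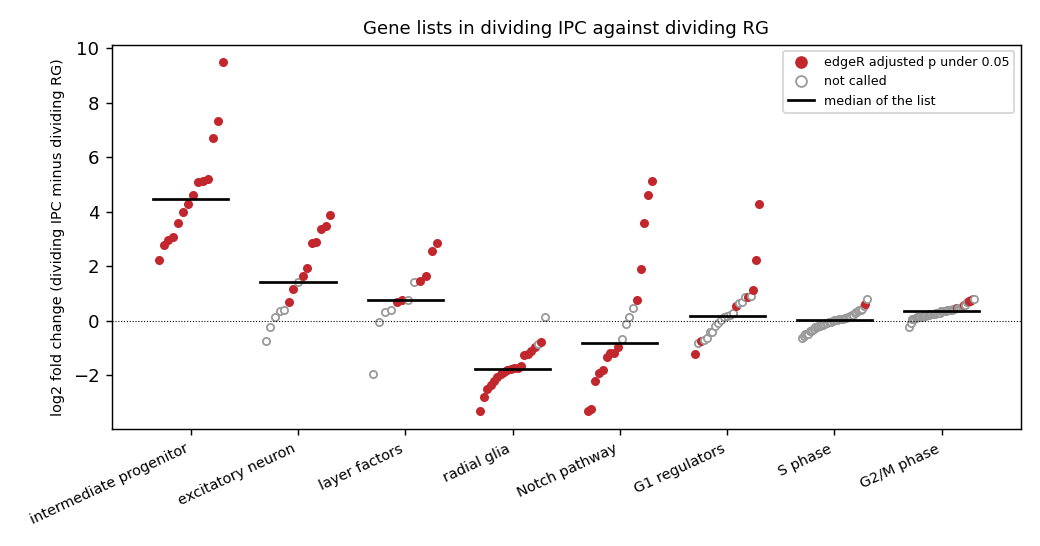
Log2 fold change of each tested gene of 8 lists between dividing IPC and dividing RG (y), with filled red points for an edgeR adjusted p under 0.05, open points for genes not called and black bars for list medians. Medians are 4.46 for the IPC list, 1.41 for neurons, -1.75 for radial glia and 0.03 for S phase.

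Layer factors were higher in 6 of 12 cases and lower in none (median 0.76). Cux2, of upper layers, was at 126 and 81.5 against 40.0 and 37.5 CPM (edgeR log2 fold change 1.47 with SE 0.21, adjusted p = 0.00629). Pou3f1 had a log2 fold change of 2.57. Its relatives Pou3f2 (0.77, edgeR adjusted p = 0.212) and Pou3f3 (0.32, 0.422) were not called. Deep-layer factor Fezf2 was at 77.6 and 98.7 against 52.7 and 56.7 CPM (0.76, SE 0.19, adjusted p = 0.0403). Its call was lost in 3 of 12 alternatives.

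Genes of the apical junction and of delamination moved both ways, 3 higher and 3 lower of 19, beside 7.31% and 8.23% of all genes tested. Scrt2, a repressor of adhesion genes, was at 65.8 and 46.7 against 2.43 and 2.63 CPM (edgeR log2 fold change 4.50 with SE 0.29, adjusted p = 0.000358). Akna, a centrosomal protein that promotes delamination, was at 21.0 and 25.3 against 4.41 and 3.39 CPM (2.64, SE 0.48). The polarity genes Crb2 (-2.62) and Mpp5 (-0.86) and the junction gene Plekha7 (-1.60) were lower. Thinning ended the call of Mpp5 (-0.52, adjusted p = 0.214). N-cadherin (Cdh2), the main adhesion molecule of the apical belt, was not called, at 864 and 980 against 1197 and 1135 CPM (-0.27, SE 0.12, adjusted p = 0.178), but was lower in thinned cells (-0.63, 0.018).

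Receptors and ligands that guide cells were exchanged: 8 of 26 were higher and 7 lower. The reelin receptor gene Lrp8 was at 272 and 330 against 41.5 and 42.4 CPM (edgeR log2 fold change 2.91 with SE 0.22, adjusted p = 0.000609). The other reelin receptor gene, Vldlr (-1.62), and the adaptor Dab1 (59.8 and 141 against 548 and 542 CPM, -2.36) were lower. The call of Vldlr was lost in 2 of 11 alternatives. Epha3 was at 1674 and 1550 against 119 and 105 CPM (3.91, SE 0.22). Epha4, its relative, was not called at 627 and 672 against 569 and 579 CPM (0.24, edgeR adjusted p = 0.226). Ephrin-B1 (Efnb1) was lower, at 72.3 and 64.3 against 134 and 149 CPM (-0.99, SE 0.15). Guidance receptors Nrp1, Plxna4 and Robo2 were higher by 3.37, 3.23 and 3.0, and the growth factor receptors Fgfr1, Fgfr2 and Fgfr3 were lower, with -1.37, -0.93 and -1.67. Neuroligin Nlgn1 was not called (-0.30, edgeR adjusted p = 0.333) except in thinned cells, where it was lower (-1.19, 0.00135), and the chemokine receptor Cxcr4 was too low to be tested, at 0 and 4.77 against 4.10 and 4.76 CPM.

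Few cell-cycle genes differed between members and dividing RG, which passed the same cycle limit. Of 45 S phase genes 1, Fen1, was higher and none lower (median 0.03), and its adjusted p was 0.0582 with the library as a block. In addition, 6 of 54 G2/M genes were higher and none lower (median 0.36), among them the spindle genes Tpx2 (0.74) and Kif2c (0.79). Over all genes tested, 7.31% were higher and 8.23% lower. The replication clamp Pcna was at 238 and 264 against 286 and 255 CPM (log2 fold change -0.04, SE 0.19) and Mcm5 at 80.2 and 92.9 against 86.3 and 90.7 CPM (0.04, SE 0.22). Mitotic Ccnb1 (0.44), Ccnb2 (0.71), Cdc20 (0.44) and Plk1 (0.39) were not called, with edgeR adjusted p from 0.0927 to 0.313. In thinned cells Ccnb2 was called (0.81, adjusted p = 0.0154), and Fen1 (0.41, 0.455), Tpx2 (0.62, 0.0632) and Kif2c (0.78, 0.0631) were not. The list sums were 4688 and 5524 CPM for S phase against 5075 and 5140 CPM, and 13241 and 13481 CPM for G2/M against 10191 and 11500 CPM.

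Regulators of G1, the phase in which a cell commits to another round, differed in 7 of 23 cases. Of these 5 were higher and 2 lower, beside 7.31% and 8.23% of all genes tested. Cdk4 (0.53), the pocket protein gene Rb1 (0.88) and the activator E2f1 (1.13) were higher, beside Btg2 and Gadd45g. Ccnd3 (-1.21) and the repressor E2f5 (-0.73) were lower. Without the dividing RG that held at least 3 collagen UMIs, Ccnd3 (-0.88, adjusted p = 0.109) and Cdk4 (0.49, 0.0529) were not called. Ccnd3 lost its call in 3 of 12 alternatives, and Cdk4 and E2f5 in 2 of 12 each. Ccnd1 (0.13), Cdk6 (-0.18) and Ccne1 (-0.09) were not called. Ccnd2, of basal process endfeet in radial glia, was at 442 and 319 against 623 and 787 CPM (-0.83, SE 0.25, adjusted p = 0.0737), and was lower in thinned cells (-0.99, 0.00626). The Cdk inhibitor Cdkn1b was at 187 and 141 against 117 and 98.9 CPM (0.66, SE 0.21, adjusted p = 0.0843). With the library as a block its adjusted p was 0.0317.

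Cdkn1c, the inhibitor p57, was not called on the summed counts, at 99.3 and 210 against 95.8 and 78.4 CPM (edgeR log2 fold change 0.91 with SE 0.34, adjusted p = 0.123). Its distribution over cells differed: 60% and 64.5% of members had a Cdkn1c UMI against 8.05% and 18.7% of dividing RG. In dividing RG, 617 of 630 and 551 of 625 Cdkn1c UMIs lay in 7 and 13 cells with at least 3 UMIs of the collagen genes Col1a1, Col1a2 and Col3a1. Without these cells, a choice made after the data had been seen, dividing RG stood at 2.09 and 10.0 CPM and the log2 fold change was 4.70 (edgeR adjusted p = 0.00519). It was called at 1.82 with at least 6 cycle UMIs (adjusted p = 0.0294), at 2.98 in thinned cells (4.53e-05) and at 0.88 when every counted gene was tested (5.83e-05). Without a test, it was 1.48 without replicate 2 and 0.11 without replicate 4. No member had 3 such collagen UMIs.

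The genes lowest in members against dividing RG came mostly from the same few cells. Vtn, a matrix gene of mural cells, gave 608 UMIs in dividing RG and 0 in members (at least 50.4-fold lower), 210 of 213 and 392 of 395 of them in the collagen-positive cells. Col1a1 (535 against 0, at least 44.3-fold lower), Col1a2 (735 against 1, ratio 183, 32.7 to 7227), Col3a1 (1347 against 1, ratio 335, 60 to 13237) and Ranbp3l (446 against 0, at least 37.0-fold lower) followed. DESeq2 did not call Col1a1 (adjusted p = 0.267). Rspo2, a Wnt agonist of the cortical hem, gave 1046 UMIs against 3 (ratio 86.7, 29.6 to 421), of which 23 of 464 and 2 of 582 were in collagen-positive cells. Each of these 6 genes was found in 2.25% to 5.75% of dividing RG. Over whole lists, vascular genes summed to 242 and 258 CPM in dividing RG with none of 8 at 0, hem genes to 98.6 and 113 CPM and erythroid genes to 72.5 and 3301 CPM. Without the collagen-positive cells 1473 genes were called, 1419 of them shared, and 14 IPC genes were still higher, 18 radial glia genes lower and 8 neuronal genes higher.

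Of 12 DNA methylation genes, 1 was higher and 1 lower in members than in dividing RG, beside 7.31% and 8.23% of all genes tested. Dnmt1 (ENSMUSG00000004099), which copies methylation onto new strands, was at 96.7 and 122 against 123 and 128 CPM (edgeR log2 fold change -0.13 with SE 0.17, adjusted p = 0.648). Its partner Uhrf1 was at 61.2 and 86.7 against 107 and 111 CPM (-0.49, SE 0.20, adjusted p = 0.157). The de novo enzyme Dnmt3a was lower, at 83.5 and 54.3 against 160 and 163 CPM (-1.18, SE 0.22; 2 of 12 alternatives ended its call), and the dioxygenase Tet2 was higher (0.84).

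The members were then divided by phase, to ask which genes outside the cycle lists changed between its parts. A cell was S-like where its S phase UMIs, each list set relative to the member mean of its library, exceeded its G2/M UMIs by 1.5 times, and G2/M-like where the reverse held. The ratio had no floor, so cells with few cycle UMIs entered too. The lowest G2/M-like cells had G2/M UMIs at 0.284 and 0.0482 of the member mean. The lowest S-like cells had S phase UMIs at 0.606 and 0.289 of the mean of that list. The groups are thus named by the balance of the lists and not by their level. There were 13 and 22 S-like, 22 and 27 G2/M-like and 10 and 13 intermediate members, and 10 and 10 lay near the line, at a ratio of 1.25 to 1.75. The phases were chosen from the cycle lists, so these genes were left out. Median depths were 38730 and 33846 UMIs in S-like and 26303 and 24425 UMIs in G2/M-like cells. Over 8256 genes, 225 (2.73%) passed the test. S-like cells were the higher side for 129 (1.56%) and the lower side for 96 (1.16%). In cells thinned to 10000 UMIs 2663 genes were tested and 21 called, 16 of them shared.

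Neuronal genes were higher in the G2/M-like members, some of which had few cycle UMIs. The G2/M-like cells lowest in G2/M UMIs had 1.53% and 1.47% of their UMIs in the neuron list. The difference was not tested with a floor on the cycle lists. Of 15 neuronal genes tested, 6 were lower in S-like cells and none higher, with a median log2 fold change of -1.48 against 0.01 over all genes. Tubb3 (ENSMUSG00000062380) was at 226 and 230 CPM in S-like and 703 and 602 CPM in G2/M-like cells (-1.51, SE 0.19, adjusted p = 0.0273). Dcx was at 208 and 183 against 485 and 457 CPM (-1.27, SE 0.19, adjusted p = 0.0287), and Tbr1 at 12.3 and 11.1 against 48.5 and 56.2 CPM (-2.15, SE 0.36, adjusted p = 0.0351). No S-like value overlapped a G2/M-like value. Of further list genes, chosen after their values were seen, Bcl11b (Ctip2), a factor of subcerebral neurons, was at 41.1 and 43.3 against 166 and 241 CPM (-2.26). Nrp1 (-1.62), Plxna4 (-2.18) and Gap43 (-1.69) were lower too.

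These phase calls stood close to the threshold. Of 9 alternatives, 6 ended the call of Gap43 and 4 that of Tbr1. Of 10 alternatives, 4 ended that of Nrp1 (adjusted p up to 0.408), 3 those of Plxna4 (up to 0.353) and Dcx, 2 that of Bcl11b and 1 that of Tubb3. With the library as a block the adjusted p was 0.0570 for Tbr1 and 0.0518 for Gap43, and the block called 190 genes and 4 of the neuronal list. Thinning gave Tubb3 a log2 fold change of -1.53 (adjusted p = 0.0538) and Dcx one of -0.68 (0.489), and called 0 of the 8 neuronal genes it could test. Neurod2 and Neurod6, used by a limit and not tested, lay the same way: Neurod6 was at 177 and 182 CPM in S-like and 744 and 489 CPM in G2/M-like cells, and Neurod2 at 71.9 and 143 against 350 and 260 CPM. More than 2 UMIs of both together were found in 7 of 13 and 16 of 22 S-like and in 21 of 22 and 24 of 27 G2/M-like members. The exact Clopper-Pearson intervals, 25.1% to 80.8% and 49.8% to 89.3% against 77.2% to 99.9% and 70.8% to 97.6%, overlapped.

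**Figure D4:**
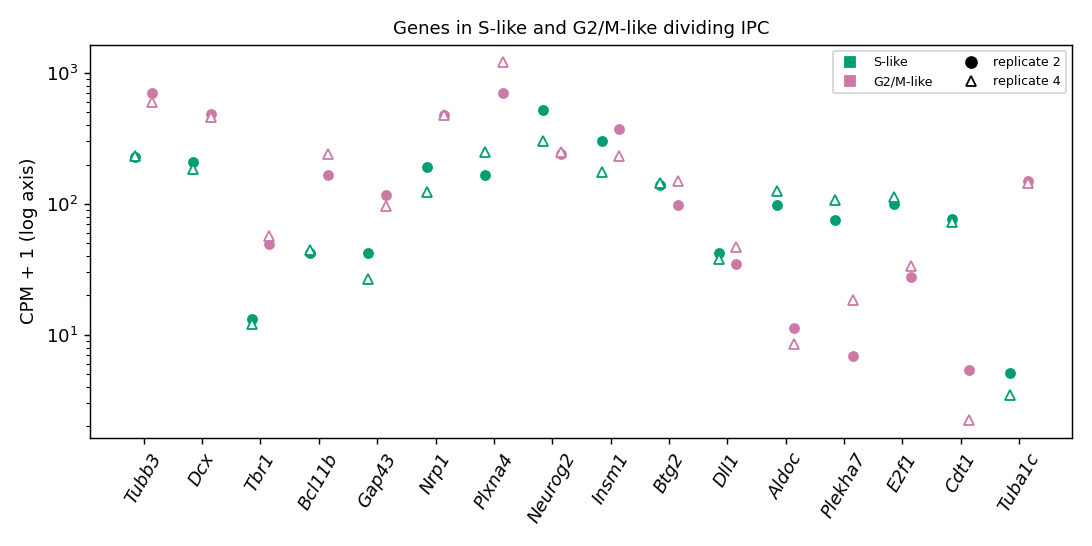
CPM + 1 (log axis) of 16 genes in S-like (green) and G2/M-like (pink) dividing IPC, with replicate 2 as filled circles and replicate 4 as open triangles. Tubb3 and Dcx sit lower in S-like cells (226 and 230, 208 and 183 CPM) than in G2/M-like cells (703 and 602, 485 and 457 CPM), while Dll1 values overlap.

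S-like members held more of a few glial and G1/S genes. Of 18 radial glia genes, 2 were higher and none lower (median 1.01). The glycolytic enzyme gene Aldoc was at 96.6 and 124 against 10.3 and 7.50 CPM (3.63, SE 0.35, adjusted p = 0.0178), and the matrix gene Tnc gave 80 UMIs against 0 (at least 30.5-fold higher), from 7.69% and 22.7% of S-like cells. Sox2, at 117 and 148 against 52.9 and 75 CPM (1.06, SE 0.28, adjusted p = 0.101), was not called. The licensing factor Cdt1 was at 76.0 and 71.7 against 4.41 and 1.25 CPM (4.68, SE 0.50), and E2f1 (1.84), E2f2 (2.51; adjusted p = 0.0789 with the block) and the junction gene Plekha7 (2.91) were higher. The glutamate receptor gene Grid1 was at 49.3 and 51.9 CPM against 1 UMI in all (ratio 75.4, 13.1 to 3023). The antisense transcript Pard3bos1 gave 41 UMIs against 1 (adjusted p = 0.0570 with the block), and whether its reads can be told from those of Pard3 depends on the strand used in counting. Arhgap6 and Shisa9 were at 0 in G2/M-like cells and present in 7.69% to 18.2% of S-like cells. Alternatives ended the call of E2f2 in 4 of 9 cases, Pard3bos1 in 3 of 9, Shisa9 in 3 of 8, E2f1 in 2 of 10, Plekha7 in 2 of 9, Arhgap6 in 1 of 9 and Grid1 in 1 of 8.

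G2/M-like members led in further mitotic genes outside the lists. The tubulin gene Tuba1c was at 4.11 and 2.47 CPM in S-like and 150 and 144 CPM in G2/M-like cells (-5.48, SE 0.38, adjusted p = 0.0111). The helicase gene Pif1 gave 0 against 70 UMIs (at least 20.4-fold lower), and Kpna2 (-4.18), Fam83d (-4.17), Cdkn3 (-4.11) and Cdc42ep3 (-4.05) were lower in S-like cells. IPC genes were not called in either direction, 0 of 14 (median -0.20). Their values lay on both sides of 0, such as Neurod4 (2.43) and Neurog1 (1.97) against Nhlh1 (-2.26) and Neurod1 (-1.33). The median thus does not show these genes to be alike in the phases. Over all 8256 genes, and not for this list, 1599 passed at an unadjusted edgeR p under 0.05, and DESeq2 called 239. Neurog2 was at 518 and 302 against 240 and 246 CPM (0.75, SE 0.28, adjusted p = 0.211), and Insm1 at a log2 fold change of -0.36. Of the inhibitors, Cdkn1b (-1.08, adjusted p = 0.0674) and Cdkn1c (53.4 and 75.4 against 154 and 375 CPM, -2.02, adjusted p = 0.0733; with the block 0.0436) were not called in edgeR. Dnmt1 was at 138 and 163 against 76.4 and 60 CPM (1.15, SE 0.24, adjusted p = 0.0618).

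Lastly, members were compared with IPCs outside division, Eomes-positive cells with no Mki67 or Top2a UMI. These were held to at most 2 UMIs of Neurod2 and Neurod6 together, to keep out newborn neurons that retain Eomes, and 23 and 39 cells remained. Members carry no such limit and mostly exceed it, so the comparison was also made with the limit on neither group (168 and 272 cells outside division) and on both groups (12 and 10 members). The test called 1150 of 11304 genes (10.2%). Members were the higher side for 760 (6.72%) and the lower side for 390 (3.45%). With no limit 2036 of 13842 genes were called, 1329 higher and 707 lower. With the limit on both 547 of 9443 were called, 408 higher and 139 lower. Of these calls, 750 and 404 were among the 1150.

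The cycle lists follow the limit on Mki67 and Top2a and are given as a description of its reach. All 54 G2/M genes and 36 of 45 S phase genes were higher, with medians of 5.70 (5.31 with genes at 0 set at their bound) and 2.16. With no limit 53 and 45 were higher, and with the limit on both 49 and 36. The kinesin gene Kif4 gave 684 UMIs in members and 0 outside division (at least 104-fold higher), followed by Neil3 (603, 91.4-fold), Ckap2l (570, 86.4-fold), Hmmr (556, 84.3-fold), Kif2c (336, 50.9-fold) and Pimreg (329, 49.9-fold), each a lower bound. Ccnb1 gave 702 against 2 UMIs (ratio 160, counting interval 44.0 to 1321). Pcna was at 238 and 264 against 35.3 and 57.6 CPM (2.43, SE 0.22) and Mcm5 at 80.2 and 92.9 against 7.07 and 18.1 CPM (2.74, SE 0.32; thinned 1.91, adjusted p = 0.0524).

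Of 23 G1 genes, 8 were higher and 2 lower, against 12 higher and none lower of 24 with no limit and 3 higher and 2 lower of 23 with the limit on both. Over all genes, 6.72% were higher and 3.45% lower as tested. The other limits gave 1329 higher and 707 lower of 13842 genes (no limit) and 408 and 139 of 9443 (limit on both). Cdk6, a partner of D cyclins, was at 246 and 183 against 46.7 and 99.1 CPM (edgeR log2 fold change 1.55 with SE 0.32, adjusted p = 0.0276). It was 1.07 with no limit (adjusted p = 0.00476) and 1.58 with the limit on both (0.0514). Ccne1 gave 62 against 3 UMIs (ratio 9.40, 3.07 to 46.8), and was not called with the limit on both (adjusted p = 0.101). The inhibitors Cdkn2c (31.6 and 31.9 against 5.65 and 3.20 CPM, 2.91) and Cdkn2d (2.87) and the activator E2f3 (1.35), chosen after their values were seen, were higher. Cdkn2d was at 1.47 under each of the other limits and was not called with the limit on both (adjusted p = 0.186). Ccnd1 was not called as tested (0.22, edgeR adjusted p = 0.499), but was higher with no limit (1.26, 0.00512) and with the limit on both (1.27, 0.0215). Cdkn1c was not called as tested (-0.18, 0.802) or with no limit (-0.95, 0.0872), but was lower with the limit on both (-5.92, 0.00298). Ccnd2 (-0.28) and Cdkn1b (0.62) were called under none of the limits. Of 12 methylation genes, 2 were higher, Dnmt1 and Uhrf1, beside 6.72% of all genes tested. Dnmt1 was at 96.7 and 122 CPM in members and 24.0 and 29.8 CPM outside division (2.03, SE 0.21, adjusted p = 0.00212). Uhrf1, also on the S phase list, was at 61.2 and 86.7 against 2.83 and 5.33 CPM (4.15, SE 0.36). For Dnmt1 the log2 fold change was 1.87 with no limit and 2.12 with the limit on both, and its call held in all 13 alternatives. Every alternative chose the groups by Mki67 and Top2a, so these calls are no check independent of that limit. Against dividing RG, which met the same limit as members, Dnmt1 was not called (-0.13, edgeR adjusted p = 0.648).

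Some early IPC genes were lower in the dividing cells, and these calls depended on the limit and on other settings. Of 14 IPC genes, 5 were lower and 2, Sstr2 and Neurod1, were higher, beside 3.45% and 6.72% of all genes tested. Neurog2 was at 415 and 327 against 636 and 826 CPM (edgeR log2 fold change -0.96 with SE 0.18, adjusted p = 0.0220), Gadd45g at 268 and 336 against 735 and 694 CPM (-1.22, SE 0.21, adjusted p = 0.0146) and Dll1 at 39.5 and 42.4 against 84.8 and 75.7 CPM (-0.94, SE 0.18). Hes6 (-0.85) and Btg2 (-0.61; adjusted p = 0.0573 with the block) were lower too, with calls that 6 and 7 of 13 alternatives ended, and Insm1 (0.64) and Mfng (-0.08) were not called. Insm1 was higher with no limit (1.05, edgeR adjusted p = 0.0373). With no limit Neurog2 was at -0.46 (adjusted p = 0.0606) and Gadd45g at -0.27 (0.370), and with the limit on both at -0.40 (0.452) and -1.02 (0.0439). Dll1, Hes6 and Btg2 were called in neither. They stood at -0.02, -0.08 and -0.28 with no limit and at -0.74, -0.58 and -0.49 with the limit on both, which left few members.

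Neuronal and glial genes turned with the limit. Unc5d was at 886 and 1662 against 363 and 228 CPM (2.14, edgeR adjusted p = 0.0120), but at -1.01 with no limit and -5.65 with the limit on both. Dcx went from 1.33 to -0.70 and -2.33, Neurod1 from 1.64 to -1.27 and -2.46, Sstr2 from 1.04 to -0.59 and -2.77, Scrt2 from 1.56 to -0.61 and -1.72 and Cux2 from 1.12 to -0.19 and -0.65. Vim went from -1.35 to 0.091 and -0.24. In thinned cells Dcx (0.46), Unc5d (0.88), Neurod1 (0.67), Sstr2 (0.36), Scrt2 (0.88) and Cux2 (0.23) were not called. Several genes not called as tested were called with no limit. Nes (1.38, edgeR adjusted p = 0.000127), Sox2 (1.04, 0.00344), Sox9 (0.91, 0.00669), Hes1 (1.33, 0.0246) and Notch1 (0.48, 0.0314) were then higher in members. Tbr1 (-0.97, 0.0127), Dll3 (-1.02, 0.0349) and Nhlh1 (-1.61, 0.0103) were then lower. With the limit on both, Nes was higher as well (1.16, 0.0493). Of 20 radial glia genes, 4 were lower and none higher as tested, 11 higher and none lower with no limit, and 3 higher and none lower with the limit on both. Over all 11304 genes as tested, 760 were higher and 390 lower. With no limit these counts were 1329 and 707 of 13842, and with the limit on both 408 and 139 of 9443. Of the neuron list, 4 of 15 were higher and none lower, against 3 of 15 and 2 of 13 lower and none higher. Nlgn1 was at 699 and 903 against 1579 and 2014 CPM (-1.14, SE 0.19, adjusted p = 0.0131), and -0.52 (0.0954) and -0.01 (0.995) under the other limits. Lrp8 (272 and 330 against 267 and 400 CPM), Epha4 (627 and 672 against 636 and 568 CPM), Cdh2 (0.06) and Prom1 (0.09) were not called as tested. Lrp8 was lower with the limit on both (-1.22, edgeR adjusted p = 0.0335) and Prom1 higher with no limit (0.49, 0.0251).

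**Figure D5:**
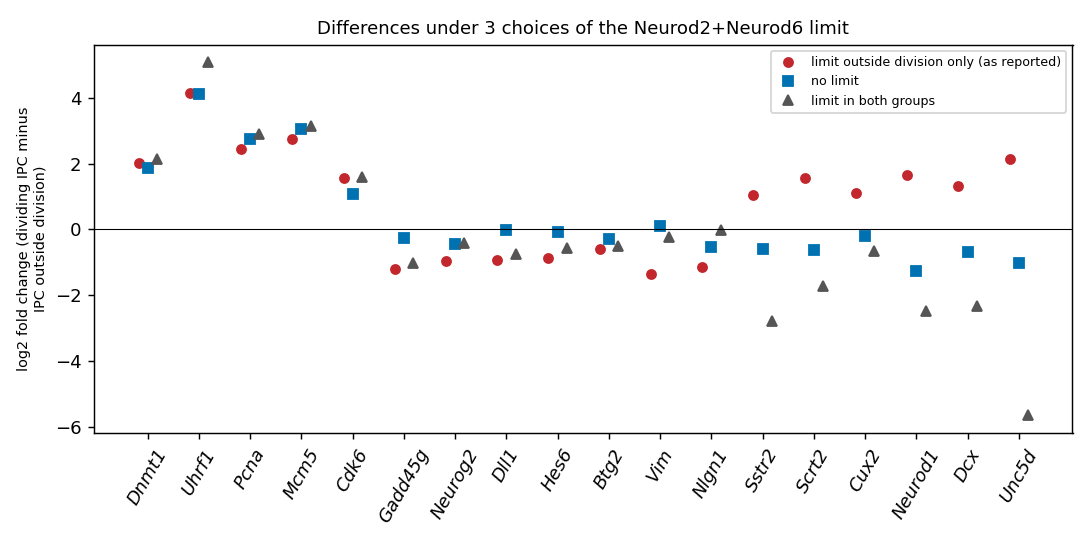
Log2 fold change between dividing IPC and IPC outside division (y) of 18 genes, with the limit on Neurod2 and Neurod6 outside division only (red circles), on neither group (blue squares) and on both groups (grey triangles). Dnmt1 stays at 2.03, 1.87 and 2.12, while Dcx moves from 1.33 to -0.70 and -2.33.

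Genes with the largest deficit in members against IPCs outside division came from few cells. Mgat4c gave 116 UMIs outside division and 0 in members (at least 85.0-fold lower), 85 of 85 in replicate 2 from cells with at least 3 UMIs of Reln, the gene of reelin made by Cajal-Retzius cells. In replicate 4 none of its 31 UMIs lay in such cells, and all were in 1 other cell. Such cells were 6 of 23 and 3 of 39 outside division and 3 and 4 of the members, and the Cajal-Retzius list summed to 420 and 67.1 CPM outside division. Without them, a choice made after the data had been seen, Mgat4c (adjusted p = 0.0528) and Ntn1 (-5.25, then -3.47, adjusted p = 0.176) were not called. Members had no Mgat4c UMI in either count, and its fitted log2 difference was -10.98 as tested and -9.14 without Reln-positive cells. Adam2 (83 against 1 UMI, ratio 183, 31.9 to 7295), Tgfbr3 (94 against 2, ratio 103, 27.8 to 866), Trhde (71 against 2, ratio 78.1, 20.8 to 657) and Pde3a (-4.95) were the others named by the rule. Reln-positive cells held 40 of 50 and 37 of 44 Tgfbr3 UMIs and 41 of 52 and 4 of 19 Trhde UMIs. Without them the fitted log2 difference went from -6.61 to -4.49 for Tgfbr3 and from -6.27 to -5.07 for Trhde, both still called. Adam2 was found in 1 and 2 cells outside division, none with 3 Reln UMIs. With the limit on both groups Mgat4c, Adam2, Trhde and Ntn1 were not called (adjusted p = 0.0568, 0.128, 0.133 and 0.174), and with no limit Adam2 (0.0935) and Trhde (0.0553) were not. The part of such cells in other differences was not tested beyond the recount without them, in which 1240 genes were called, 958 of them shared.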

How the data were processed

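Droplet single-cell libraries of the dorsal telencephalon of 2 wild-type embryos at day 14.5 were used. The authors ran Cell Ranger 7.0.0 on mm10, per the labels' processing notes, and deposited raw UMI counts per gene and barcode (32285 genes) with no normalization. Whether intronic reads were counted is not given in the sources used here. Doublets were called with Scrublet in scanpy 1.11.5 (14 and 15 barcodes) and kept. UMIs were summed per library and cell group. The 6 sums of 3 groups entered 1 fit with edgeR 4.0.16 (quasi-likelihood test, TMM, filterByExpr, residual df 3), and the 4 phase sums a fit of their own (df 2). Adjusted p-values are Benjamini-Hochberg over all genes tested, and standard errors were derived from the log2 fold change and the root of its F value. Cells were never replicates. Intervals cover counting error only. The rule, members, gene lists and tests were chosen with earlier results of these data known. Genes named were 52 fixed genes and, per comparison, at most 6 called genes each way, ranked by fold change, with the same sign in both libraries and at least 20 CPM, skipping symbols that start with Gm or end with Rik. Sums with equal replicate numbers share a library and are thus paired. Deviations from the group means correlated with 0.00665 and 0.212 between members and the other groups (11324 genes) and 0.112 between phases. Each fit was first tested on simulated counts in which 200 genes were altered. The values of 1 list gene are not reported here.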

Additional observations from a re-analysis of the deposited data

How the results depend on the processing

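Direction and side of the threshold stayed the same in 2379 gene values over the alternatives that kept both libraries, while 110 lost and 72 gained a call and 64 changed sign. Leaving out a library leaves no residual degrees of freedom and gives values without a test, of which 358 moved by less than the spread and 100 by more. The sign changed for 13 of 66 genes against cells outside division, 6 of 101 against dividing RG and 8 of 62 between phases, none of them called in the comparison as reported. Counts of called genes were within 1.5 times otherwise. For members against cells outside division, 1150 became 2194 once any gene with a count was tested, 547 with the Neurod2 and Neurod6 limit on both groups, 2036 with no limit and 598 with only the compared groups in the fit. Against dividing RG, 1756 became 2857 once any gene with a count was tested, where 36.8% of calls were higher instead of 47.0%. For the phases, 225 became 1087 when any counted gene was tested, 92 at Eomes of at least 5, 126 at up to 5% mitochondrial UMIs and 21 in thinned cells. The dividing share of 17.1% became 14.3% at 6 cycle UMIs and 11.96% in thinned cells, and lay from 15.6% to 18.5% when a library was left out. The library as a block, the paired analysis, called 995, 1569 and 190 genes. Besides the calls given above it changed those of Fen1 against dividing RG (adjusted p = 0.0582), Pou3f2 against cells outside division (0.0398) and Pard3bos1 between phases (0.0570). Other named genes did not change their call under it. The cause of the following changes of sign was not tested.

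Signs against cells outside division changed for these genes with the limit on both groups: Sstr2 -2.77, Neurod1 -2.46, Pax6 0.60, Sox2 0.61, Sox9 0.38, Hes1 0.47, Hes5 0.32, Notch1 0.19, Tubb3 -1.74, Dcx -2.33, Unc5d -5.65, Ccnd2 0.44, Cdkn1b -0.013, Scrt2 -1.72, Epha4 -0.21, Efnb1 0.42 and Cux2 -0.65. With no limit they were Sstr2 -0.59, Neurod1 -1.27, Neurod4 -0.22, Pax6 0.42, Sox2 1.04, Sox9 0.91, Hes1 1.33, Hes5 0.76, Vim 0.091, Hopx 1.25, Notch1 0.48, Tbr1 -0.97, Tubb3 -0.71, Dcx -0.70, Unc5d -1.01, Ccnd2 0.11, Scrt2 -0.61, Akna -0.11, Epha4 -0.34 and Cux2 -0.19. Mfng became 0.031 at Eomes of at least 5. Thinning gave Pax6 0.25, Cdh2 -0.28, Prom1 -0.36 and Epha4 -0.25. At 6 cycle UMIs Nes became -0.045 and Ccnd1 -0.18, and without Reln-positive cells Nes -0.22, Ccnd1 -0.10 and Prom1 -0.12.

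Against dividing RG, Ccnd1 became -0.28 at 6 cycle UMIs, Ccne1 0.073 at Eomes of at least 5 and 0.011 without collagen-positive cells, Cdk6 0.054 in thinned cells and Pcna 0.00695 with no limit on Fabp7 and Slc1a3. Between phases, Btg2 became -0.14, Vim -0.15 and Efnb1 -0.28 at 6 cycle UMIs. Thinning gave Insm1 0.010, Vim -0.65 and Epha4 0.020. Without doublets Dll1 became 0.027 and Efnb1 -0.079. Efnb1 was also at -0.11 at Eomes of at least 5, -0.013 at up to 5% mitochondrial UMIs and -0.053 at a phase ratio of 2, and Cdh2 was at -0.019 with every counted gene. Apart from Sstr2, Neurod1, Dcx, Unc5d, Scrt2, Cux2 and Vim, none of these genes was called in the comparison as reported. The phase comparison rests on 1295842 UMIs in all S-like and 1480518 in all G2/M-like cells and on 2 residual degrees of freedom.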
